A study of Mus musculus with 16 samples.

Results

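Gene expression in group 2 innate lymphoid cells (ILC2s) of the lung was compared between 4 months and day 4 after intranasal treatment with the cytokine IL-33. The comparison used 5 of the series' 16 arrays, the 3 of day 4 and the 2 of 4 months, chosen by their labels alone, and covered 22180 genes. Both groups came from C57BL/6J mice that had received IL-33. The deposited design text counts the time from the first treatment and does not give the number of doses, the age or sex of the mice, or whether mice were pooled. The arrays of a group are labelled as biological replicates, but no source used here ties an array to 1 animal, so p-values measure the spread between arrays. Values from naive lung (n = 2), week 2 lung (n = 3) and mediastinal lymph node at day 4 and week 2 (n = 3 each) are given beside results of this comparison. These arrays also entered the models. All 16 arrays gave the estimate of spread, and the 9 of week 2 lung and lymph node gave the reference gene levels used below.

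ILC2s are tissue-resident lymphocytes that carry no rearranged antigen receptor and respond to alarmins such as IL-33, which damaged epithelium releases. On activation they divide and secrete type 2 cytokines, above all IL-5, which recruits eosinophils, and IL-13, which acts on mucus, smooth muscle and macrophages. Their program rests on the transcription factors GATA3 and RORα, and they depend on IL-7 for survival. Day 4 samples the acute effector phase and 4 months a late state.

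The values are log2 signals, 1 per gene and array. The mean of 14 ILC2 markers lay between 9.13 and 9.40 on the day 4 arrays and between 8.90 and 9.24 on the 4-month arrays, and Gata3 lay between 8.82 and 9.60 on all 5, so ILC2 transcripts were high in both groups. The 4-month arrays had a narrower spread of signal, with interquartile ranges of 2.05 and 2.47 against 2.92 to 3.04 at day 4, and the correlation between the 4-month replicates was 0.947 against at least 0.977 at day 4. Macrophage transcripts differed between day 4 arrays: the mean of 17 macrophage markers was 5.63 and 5.64 on replicates 1 and 2 and 4.32 on replicate 3, against 4.62 and 4.25 at 4 months. The naive arrays, given for some genes below, had a T cell marker mean of 6.73 to 6.86 against 5.15 to 5.36 in the groups compared. They also shared the narrow spread of the 4-month arrays, with interquartile ranges of 2.39 and 2.45 and a correlation of 0.937. Naive values below are deposited ones. How far this shared spread makes naive and 4-month values alike was not tested. In bulk RNA, fewer cells of a type and less RNA per cell cannot be told apart.

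The difference between 4 months and day 4 depended on how bright a gene was. When genes were ordered by their mean on the 9 other activated arrays and split into 20 bins of 1109 genes, the median difference (4 months minus day 4) was 0.12 in the dimmest bin, reached 0.33 at a level of 3.13, passed 0 between levels of 4.61 and 4.98, and was -0.69 at a level of 7.61. Replicate 1 of 4 months carried more of the shift than replicate 2, with -0.95 and -0.43 in that bin. On the deposited values 54.1% of the genes in this bin were called lower, and 7.94% once each array's median shift in every bin had been taken out, a step called level matching here. Bins follow the level on the 9 other arrays, so a gene high at day 4 alone was matched with dimmer genes. Level matching can then enlarge a fall, as for Tigit below (3.92 before and 4.12 after), in the bin at 4.29.

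**Figure D1:**
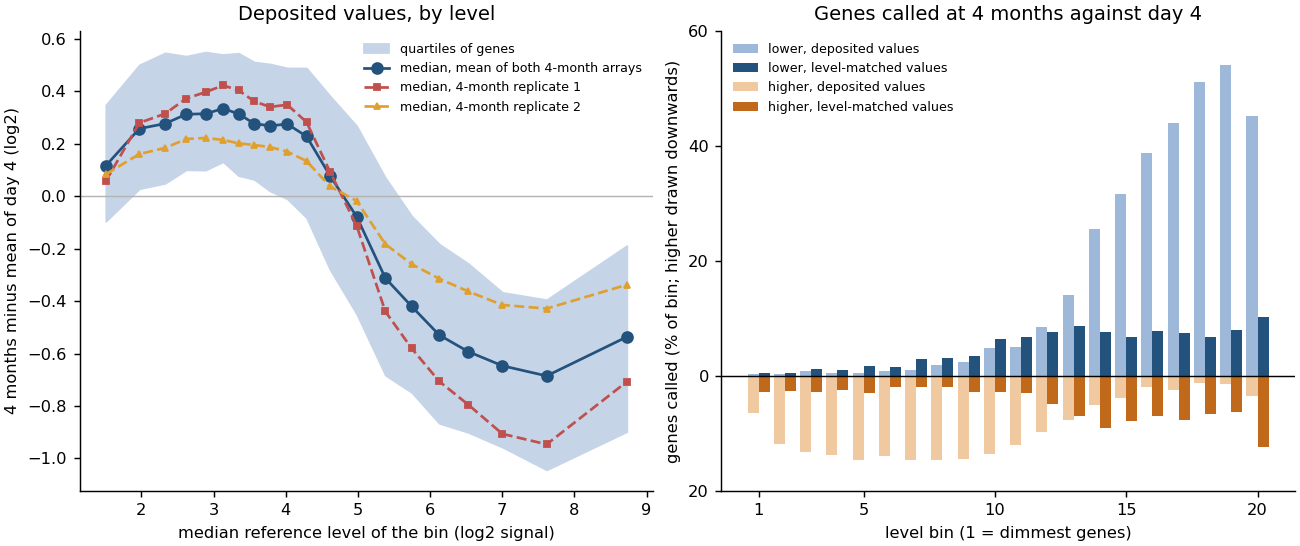
Left, the median difference between 4 months and day 4 (log2, deposited values) of the genes in each of 20 level bins against the bin's median level, for the mean of both 4-month arrays and for each one, with the quartiles over genes as a band. Right, the share of each bin's genes called higher (downwards) or lower (upwards) on deposited and on level-matched values; the calls of bright genes as lower dropped from 54.1% to 7.94% in the bin at a level of 7.61.

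Each gene was therefore tested on both kinds of values with limma, a linear model that pools the spread over genes. At a Benjamini-Hochberg adjusted p under 0.05, 2001 genes were higher (9.02% of those tested) and 3677 lower (16.6%) on the deposited values. On level-matched values 1079 were higher (4.86%) and 1114 lower (5.02%). A gene is said to have risen or fallen below only where it passed in both fits in the same direction, which 664 genes did upwards (2.99%) and 992 downwards (4.47%), and no gene was called in opposite directions. The shares of 2.99% and 4.47% are the background for the counts of list members below. Both depend on level. In the dimmest bin 2.80% rose and 0.36% fell. In the bins at levels of 4.61 to 8.73, 1.17% to 6.94% rose and 6.85% to 10.2% fell. For lists of brighter genes 4.47% is thus a low background, and a count near the higher shares is not read as a change of the list. Of the genes that rose, 389 did so by at least 1 on the level-matched log2 scale and 64 by at least 2. Of those that fell, 562 did so by at least 1, 92 by at least 2 and 10 by at least 4. The counts rest on few arrays: without day 4 replicates 1 and 2, the pair with high macrophage transcripts, 143 rose and 270 fell, with array weights 312 and 611, and with the macrophage marker mean as a covariate 411 and 657. Without 1 array at a time, 378 (without day 4 replicate 1) to 807 (without 4-month replicate 2) rose and 605 (without day 4 replicate 1) to 964 (without day 4 replicate 3) fell.

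Genes of cell division were the group with the most falls. Of 38 genes of mitosis and the kinetochore, 28 fell and 0 rose, against the background of 4.47% of all genes that fell, and their median level-matched difference was -1.49 against 0.01 for all genes. Without day 4 replicates 1 and 2, 17 of the 38 still fell, and without any 1 array 21 to 26 did. The list's median was -1.80 when the arrays were scaled to 1 signal range and -1.86 after repeated quantile normalization.

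Mki67, whose product Ki-67 coats mitotic chromosomes and marks cycling cells, stood at 8.34, 7.84 and 7.97 at day 4, against 4.30 and 4.78 at 4 months. All 3 day 4 arrays were at least as high as 7.84 and both 4-month arrays below 5, a fall by 3.51 ± 0.24 (SE), or 11.4-fold (limma, adjusted p = 3.67e-07), and by 2.86 after level matching. Top2a, the topoisomerase that untangles replicated DNA, gave 7.69, 7.42 and 7.32 against 3.24 and 4.47, a level-matched fall by 2.97 (limma, adjusted p = 4.57e-06). Ube2c, which with the anaphase-promoting complex marks cyclins for destruction, gave 7.24, 7.10 and 7.41 against 4.36 and 3.74. Its level-matched fall was 2.69 (limma, adjusted p = 3e-04). Ndc80, which couples kinetochores to spindle microtubules, gave 6.44, 5.53 and 6.35 against 2.45 and 3.54, and fell by 3.04 (limma, level-matched adjusted p = 3.46e-05). The mitotic kinase gene Cdk1 and its partner Ccna2 fell by 2.51 and 2.54. Members without a call included Aurka and Plk1, with level-matched differences of -0.19 and -0.59.

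The DNA replication genes moved less. Of 36 S phase genes 12 fell, against 4.47% of all genes, and 0 rose. Their median level-matched difference was -0.48, and without day 4 replicates 1 and 2, 4 fell. Without 4-month replicate 2, 7 did. Rrm2, the subunit of ribonucleotide reductase that limits the supply of deoxynucleotides, was at 7.69, 7.18 and 6.89 on day 4 and at 4.11 and 4.51 at 4 months, and fell by 2.44 (limma, level-matched adjusted p = 0.000282). Mcm6, a subunit of the replicative helicase, was at 8.05, 7.93 and 7.88 against 5.64 and 6.24 and fell by 1.33 (adjusted p = 0.000128). Both groups were apart for each gene. Pcna, the sliding clamp of DNA polymerases, was at 9.29 and 9.30 at 4 months and within 9.04 to 9.33 on day 4. It was not called on the deposited values and was higher by 0.60 after level matching (limma, adjusted p = 0.0352). Replication-dependent histone genes include the third largest level-matched fall named here: H1f5, a linker histone, was at 9.14, 8.41 and 8.90 against 3.40 and 3.34, a fall by 4.87 (limma, adjusted p = 0.00016). H2ac15, an H2A gene, was at 6.80, 6.65 and 7.27 against 3.04 and 1.88. Of 29 clustered histone genes measured, a group picked after their values were seen, 5 fell, against 4.47% of all genes, and 0 rose. Histone genes are near-identical copies of each other, so signal of 1 copy may come from another.

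The promoters of the fallen mitotic genes are shown because they hold the letters of 2 elements through which the cell cycle is known to act on late genes, the cell cycle homology region (TTTGAA) and the CCAAT box (CCAAT). The 4 with the largest level-matched falls among those with a promoter in the table follow, 5' to 3' on the gene's strand, from RefSeq on GRCm38.p6, each with 250 bases before and 50 after the start of transcription, with matches to either element on either strand in capitals. The windows are chr17:71526808-71527107 (minus strand) for Ndc80, chr11:99024140-99024439 (minus) for Top2a, chr7:135716330-135716629 (minus) for Mki67 and chr2:164769679-164769978 (plus) for Ube2c.
Ndc80: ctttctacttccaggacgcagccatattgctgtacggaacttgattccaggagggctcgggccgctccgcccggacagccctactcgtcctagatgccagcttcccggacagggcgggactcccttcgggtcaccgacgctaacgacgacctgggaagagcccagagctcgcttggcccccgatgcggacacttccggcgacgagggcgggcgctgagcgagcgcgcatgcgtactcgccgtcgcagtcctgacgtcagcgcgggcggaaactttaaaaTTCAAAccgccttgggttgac
Top2a: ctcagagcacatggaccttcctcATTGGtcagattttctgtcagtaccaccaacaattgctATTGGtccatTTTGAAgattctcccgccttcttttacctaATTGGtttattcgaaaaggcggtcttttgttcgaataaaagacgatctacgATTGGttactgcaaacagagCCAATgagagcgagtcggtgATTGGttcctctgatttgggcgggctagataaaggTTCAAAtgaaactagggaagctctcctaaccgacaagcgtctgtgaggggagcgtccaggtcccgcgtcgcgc
Mki67: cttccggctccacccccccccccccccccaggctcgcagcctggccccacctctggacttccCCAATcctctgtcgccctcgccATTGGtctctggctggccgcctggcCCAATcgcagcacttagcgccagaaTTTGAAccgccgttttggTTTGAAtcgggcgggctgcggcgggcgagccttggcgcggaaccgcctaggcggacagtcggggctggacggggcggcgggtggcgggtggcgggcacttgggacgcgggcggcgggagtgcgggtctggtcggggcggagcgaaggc
Ube2c: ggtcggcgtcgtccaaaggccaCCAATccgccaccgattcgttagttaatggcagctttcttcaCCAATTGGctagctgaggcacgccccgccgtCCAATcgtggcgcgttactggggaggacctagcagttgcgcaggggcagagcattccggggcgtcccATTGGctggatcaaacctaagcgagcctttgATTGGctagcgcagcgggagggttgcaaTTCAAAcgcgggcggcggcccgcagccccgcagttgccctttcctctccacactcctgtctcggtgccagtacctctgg
Top2a and Mki67 have 2 matches to TTTGAA and Ndc80 and Ube2c 1 each, and all but Ndc80 also have CCAAT, where overlapping matches on the 2 strands count separately. Over the 37 promoters listed for 33 of the mitotic genes, 73.0% hold TTTGAA, against 17.9% of all 32851 promoters. Both elements together are in 62.2% of them and in 6.95% of all. Promoters of the S phase list hold TTTGAA in 11.1%. These shares cover all members with a promoter in the table, risen, fallen or not, and a match is not a shown binding site.

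Interferon-stimulated genes were the other group in which most members fell. Type I and III interferons induce these antiviral genes. Of 30 members 22 fell, against 4.47% of all genes, 1 rose (Ifit3) and the median level-matched difference was -1.38. Without day 4 replicates 1 and 2, 11 fell, and without any 1 array 16 to 22. Scaling to 1 signal range gave a median of -1.28. Rtp4, a chaperone of receptor transport that interferon induces, stood at 7.62, 7.84 and 7.95 at day 4, against 3.63 and 4.06 at 4 months. The groups were far apart, a fall by 3.96 ± 0.37 (SE; limma, adjusted p = 4.49e-06), or 15.5-fold, and by 3.45 after level matching. Ifih1, which encodes the double-stranded RNA sensor MDA5, was at 6.98, 7.03 and 7.38 against 4.23 and 4.09, and fell by 2.55 (limma, level-matched adjusted p = 2.13e-05). Ifit1, which blocks translation of viral RNA, was at 7.51, 7.57 and 7.82 against 5.44 and 4.25. Zbp1, a sensor of Z-form nucleic acid, was at 8.86, 8.98 and 8.67 against 5.33 and 6.31. For each of these genes every 4-month array was below every day 4 array.

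Genes of interferon signalling on the list included Stat2 and Irf9, which encode transcription factors. Stat2 fell by 1.25 and Irf9 by 1.38 on the level-matched scale, and Irf7, the factor that amplifies interferon production, by 0.98. The calls of Stat2 and Irf7 were lost without 4-month replicate 2. Ifit3 went against its family, at 5.60, 6.03 and 5.82 on day 4 and 7.36 and 6.28 at 4 months, a rise by 1.42 (limma, level-matched adjusted p = 0.0232) that was lost without 4-month replicate 1 and without each day 4 array in turn. The neighbouring Ifit genes are close copies, and probes may be shared between them. At week 2 the levels were already low: Rtp4 had a mean of 4.93, Ifih1 of 5.26, Ifit1 of 4.39 and Zbp1 of 6.65. Between 4 months and week 2, 0 of the 30 members were called in both fits. Of all genes only 0.960% were higher and 0.712% lower in that comparison, so this count does not set the list apart.

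**Figure D2:**
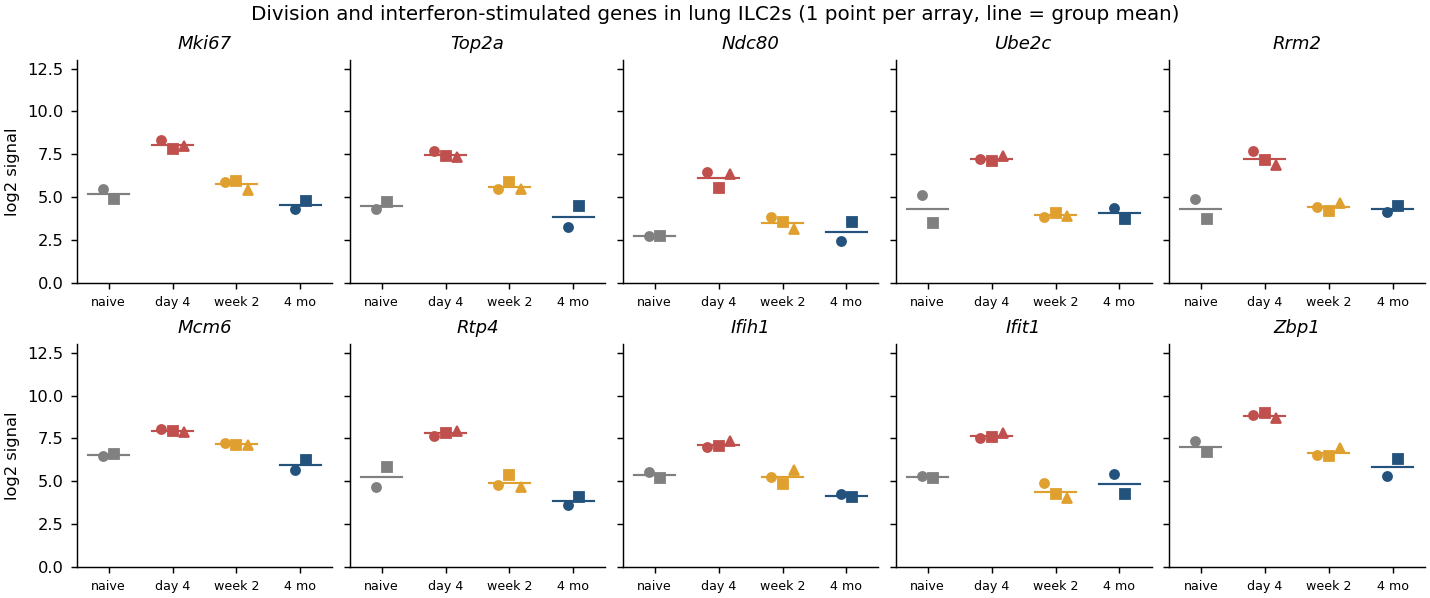
Log2 signal of 6 division genes and 4 interferon-stimulated genes on each lung array, by time (naive, n = 2; day 4, n = 3; week 2, n = 3; 4 months, n = 2), with lines at group means. All 10 genes have their highest mean at day 4; Mki67 lies at 7.84 or above there and at 4.78 or below at 4 months.

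For this group the shared promoter element is the interferon-stimulated response element, searched here by its core GAAANNGAAA on both strands. The promoters of the 2 fallen members with the largest level-matched falls among those with a promoter in the RefSeq table are shown for it, with matches in capitals: chr2:62646206-62646505 (minus strand) for Ifih1 and chr19:34640639-34640938 (plus) for Ifit1, GRCm38.p6, again from 250 bases before to 50 after the start.
Ifih1: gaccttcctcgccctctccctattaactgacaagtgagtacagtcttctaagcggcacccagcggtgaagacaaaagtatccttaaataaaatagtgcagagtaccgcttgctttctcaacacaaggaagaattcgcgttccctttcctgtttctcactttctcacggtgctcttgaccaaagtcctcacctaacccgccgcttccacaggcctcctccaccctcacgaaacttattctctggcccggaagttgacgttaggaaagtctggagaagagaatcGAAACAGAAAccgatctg
Ifit1: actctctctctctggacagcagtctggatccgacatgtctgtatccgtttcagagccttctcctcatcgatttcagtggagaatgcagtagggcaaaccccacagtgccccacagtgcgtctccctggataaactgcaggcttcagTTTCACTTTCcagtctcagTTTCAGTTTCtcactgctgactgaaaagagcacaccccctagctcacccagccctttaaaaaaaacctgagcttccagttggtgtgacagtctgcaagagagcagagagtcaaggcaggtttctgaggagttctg
Ifih1 has 1 match and Ifit1 has 2. Of the 26 promoters listed for 20 members, 13 hold the core, against 3.44% of all promoters and 5.41% of those of the mitotic genes.

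The type 2 cytokines themselves were not called in both fits. Il5 was at 8.62, 8.50 and 8.83 on day 4 and at 7.93 and 8.41 at 4 months. All 4-month values were the lower ones, yet the deposited difference was -0.48 ± 0.22 (SE; limma, adjusted p = 0.111) and the level-matched one 0.03. Il13 was at 11.55, 11.34 and 12.08 against 10.32 and 10.53, a deposited difference of -1.23 (limma, adjusted p = 0.00203) and a level-matched one of -0.71 (adjusted p = 0.0755). Scaling to 1 signal range turned the sign of both, to 0.71 each. The 4-month means of Il5 and Il13 were 8.17 and 10.43, against 8.52 and 10.99 at week 2 and 7.55 and 10.38 in naive lung. Their level-matched differences from week 2 were 0.14 and -0.07. Il4, the cytokine of type 2 helper cells, and Il6 were also lower on the deposited values, by -1.20 and -1.36, and not on level-matched ones (-0.61 and -0.67). Csf2, which encodes GM-CSF, was at 8.65 and 8.78 against 8.10 to 8.70, and the groups overlapped.

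Of 21 cytokine and growth factor genes 4 rose and 1 fell, against 2.99% and 4.47% of all genes. Il2, the lymphocyte growth factor, was at 5.49, 5.91 and 6.35 on day 4 and 8.22 and 8.05 at 4 months, with no overlap, and rose by 2.22 ± 0.27 (SE), or 4.66-fold (limma, adjusted p = 4.32e-05), and by 2.80 after level matching. Lif, a cytokine of the IL-6 family, had a mean of 7.30 ± 0.42 (SD, n = 3) at day 4 against values of 8.57 and 9.11, and rose by 2.22 on the level-matched scale (limma, adjusted p = 1.9e-05). Their week 2 means were 7.99 and 9.05, and both passed in both fits under every alternative run. Tnf rose by 1.68 and Csf1, the macrophage growth factor, by 1.26 (level-matched), and Csf1 lost its call without day 4 replicate 2 or either 4-month array. Tnf was at 9.33, 8.62 and 9.59 against 10.14 and 10.55, and its call on the deposited values was lost without day 4 replicate 2 (limma, adjusted p = 0.1), without 4-month replicate 1 (adjusted p = 0.0712) and without 4-month replicate 2 (adjusted p = 0.125). Penk, which encodes the enkephalin precursor, was at 5.92, 5.34 and 6.30 against 3.49 and 4.12 and fell by 2.29 (limma, level-matched adjusted p = 0.000396).

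Among 13 chemokines 4 fell, against 4.47% of all genes, and 0 rose. Cxcl3, which attracts neutrophils, was at 7.45, 7.59 and 7.62 on day 4 and at 2.84 and 4.07 at 4 months, a fall by 3.80 after level matching (limma, adjusted p = 2.35e-06), alike on all 3 day 4 arrays. Ccl17 and Ccl24, ligands of CCR4 and of the eosinophil receptor CCR3, fell and were highest on the day 4 arrays with high macrophage transcripts. Ccl17 was at 10.55 and 10.24 on day 4 replicates 1 and 2, at 4.41 on replicate 3 and at 3.67 and 2.59 at 4 months. Against replicate 3 alone the deposited difference was -1.28 (limma, adjusted p = 0.14), and the level-matched call was also lost without 4-month replicate 2 (adjusted p = 0.0529). Ccl24 was at 9.22, 8.59 and 6.58 against 3.78 and 4.17, and was called without replicates 1 and 2 too. Cxcl10, a T cell chemokine that interferon induces, fell by 1.34 (limma, level-matched adjusted p = 0.0389), a call lost without 4-month replicate 1 (-0.97, adjusted p = 0.29) and without day 4 replicate 2 or 3.

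Of 25 cytokine receptor genes 1 rose and 4 fell, against 2.99% and 4.47% of all genes. Without 1 array at a time 3 to 5 fell. Il1r2, the decoy receptor that binds IL-1 without signalling, was at 9.22, 8.85 and 9.29 on day 4 and at 4.48 and 5.43 at 4 months. The groups were far apart, a fall by 4.16 ± 0.35 (SE), or 17.9-fold (limma, adjusted p = 2.24e-06), and by 3.66 after level matching. At week 2 its mean was 5.59 and in naive lung 3.26. Il18r1, the ligand-binding chain of the IL-18 receptor, was at 8.91, 8.82 and 8.93 against 6.66 and 6.75 and fell by 1.66 (limma, level-matched adjusted p = 0.000909). Unlike Il1r2 it was still at 8.55 at week 2, and it was lower at 4 months than then (by 1.35, adjusted p = 0.016). Its partner chain Il18rap fell by 0.78, and the call was lost without day 4 replicates 1 and 2. Il17rb, the IL-25 receptor, and Kit, the stem cell factor receptor, had level-matched differences of -0.52 and -0.53 and were not called in both fits. Il7r, which mediates survival by IL-7, was at 11.03 and 11.27, with groups overlapping. Il2ra, the high-affinity chain of the IL-2 receptor, was at 8.27, 8.52 and 8.82 against 8.99 and 9.37 and rose by 1.16 (level-matched). Its call on the deposited values was lost without day 4 replicate 1 (limma, adjusted p = 0.115), day 4 replicate 2 (0.0682) or 4-month replicate 2 (0.172).

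Of 27 costimulatory and inhibitory receptors and their ligands 9 fell, against 4.47% of all genes, and 0 rose. Without day 4 replicates 1 and 2, 6 fell. Tigit, an inhibitory receptor of lymphocytes, was at 7.01, 6.70 and 7.66 on day 4 and at 3.22 and 3.20 at 4 months, a fall by 3.92 ± 0.27 (SE), or 15.1-fold (limma, adjusted p = 3.67e-07), and by 4.12 after level matching. Ctla4, which competes for CD80 and CD86, was at 6.69, 7.02 and 8.05 against 4.49 and 4.48 and fell by 2.85 (level-matched adjusted p = 0.000298). Both were low at week 2, with means of 4.09 and 4.61. Lag3 and Havcr2, which encode the inhibitory receptors LAG-3 and TIM-3, fell by 1.82 and 1.33, and Havcr2 lost its call without 4-month replicate 1. Pdcd1, which encodes PD-1, was at 7.36, 7.34 and 7.98 against 5.61 and 7.12 and was not called after level matching (limma, adjusted p = 0.125).

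Of the TNF family ligands on the list, Tnfsf4 and Tnfsf8 fell, while Tnfsf9, Tnfsf11, Tnfsf14 and Tnfsf18 were called in neither fit, with level-matched differences of -0.27, -0.03, 0.21 and -0.16. Tnfsf4, which encodes OX40 ligand, was at 7.49, 6.96 and 7.74 against 4.85 and 5.11 and fell by 1.83 (limma, level-matched adjusted p = 0.00612). Tnfsf8, which encodes CD30 ligand, was at 8.05, 7.72 and 8.31 on day 4, at a mean of 8.12 at week 2, and at 5.20 and 5.85 at 4 months. It fell by 1.85 (limma, level-matched adjusted p = 5e-05) and was lower at 4 months than at week 2 by 1.97. In the lymph node Tnfsf8 was higher at week 2 than at day 4 by 1.35 (limma, adjusted p = 0.0013). Over that interval its lung mean went from 8.03 to 8.12, and there are no lymph node arrays of 4 months. Klrg1, a marker of mature ILC2s, was at 9.04, 9.30 and 9.08 against 7.68 and 8.18. It fell by 0.69 after level matching (limma, adjusted p = 0.048), and that call was lost when any 1 of the 5 arrays was left out, with adjusted p from 0.0708 to 0.201.

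**Figure D3:**
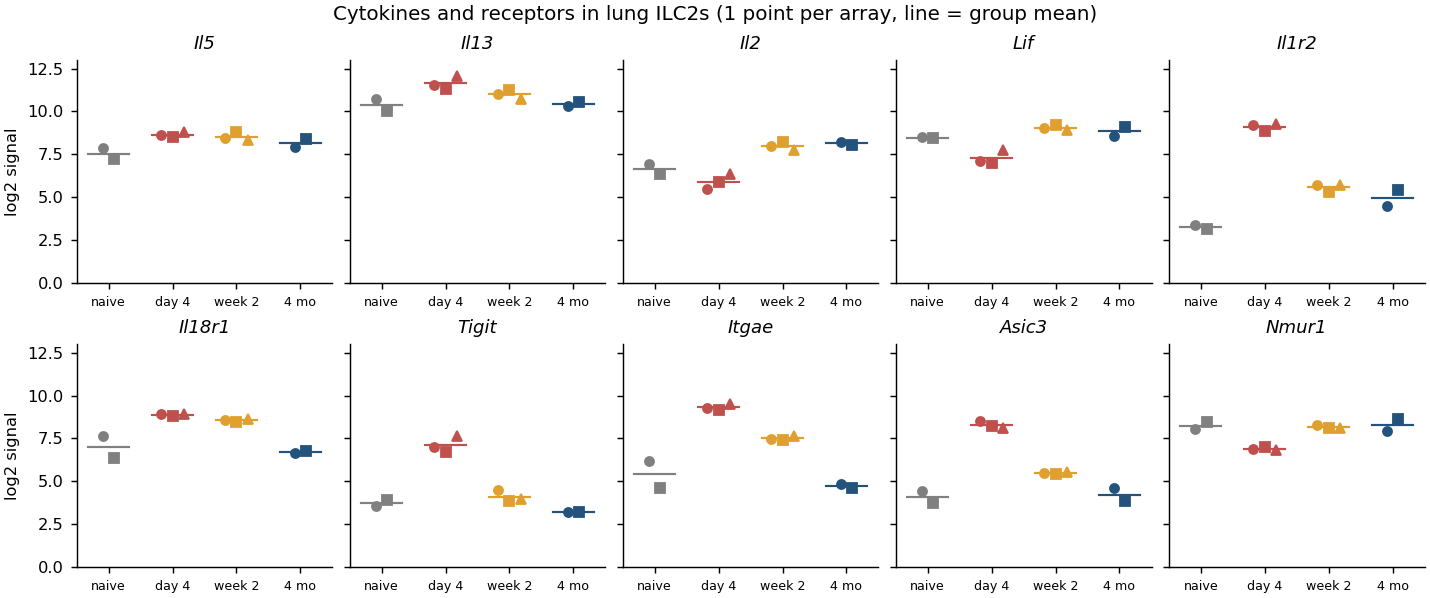
Log2 signal of 10 cytokine and receptor genes on each lung array by time, with lines at group means. Il2, Lif and Nmur1 are lowest on the day 4 arrays, while Il1r2, Tigit, Itgae and Asic3 are highest there; Il18r1 is still near its day 4 level at week 2 and lower on both 4-month arrays.

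Among 29 chemokine receptors, integrins and egress receptors 4 fell and 2 rose, against 4.47% and 2.99% of all genes. Itgae, the αE integrin (CD103) that binds epithelial E-cadherin, was at 9.30, 9.18 and 9.53 on day 4, at a mean of 7.51 at week 2 and at 4.86 and 4.63 at 4 months. It fell by 4.59 ± 0.34 (SE), or 24.1-fold (limma, adjusted p = 6.12e-07), by 3.91 after level matching, and was lower at 4 months than at week 2 by 2.10 (limma, level-matched adjusted p = 0.0077). In naive lung it was at 6.19 and 4.63. Ccr4, the receptor for CCL17 and CCL22, was at 7.32, 7.33 and 7.49 against 4.94 and 5.27 and fell by 1.63 (limma, level-matched adjusted p = 1.58e-05). Itgb1, the β1 integrin, fell by 1.10. Ccr2, the receptor for CCL2, was at 9.36, 9.14 and 9.06 against 9.94 and 10.24, and rose by 1.42 (limma, level-matched adjusted p = 4.57e-05). Gpr183, which senses oxysterols and guides lymphocyte positioning, rose by 1.33, and its call held without day 4 replicate 3 but not without any other of the 5 arrays. At week 2 these 2 genes had means of 10.14 and 8.78. S1pr1, the receptor for egress into lymph and blood, and the retention marker Cd69 were not called in both fits.

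Receptors for neuropeptides and related signals gave 3 rises and 1 fall of 13, against 2.99% and 4.47% of all genes. In this list 1 rise was left without day 4 replicate 2 or without 4-month replicate 1. Nmur1, the receptor through which neuromedin U activates ILC2s, was at 6.88, 6.97 and 6.82 on day 4 and at 7.96 and 8.62 at 4 months, a rise by 1.40 ± 0.23 (SE), or 2.64-fold (limma, adjusted p = 0.00063), and by 1.92 after level matching. The day 4 arrays were the low ones among lung groups, since week 2 had a mean of 8.15 and naive lung of 8.24. Asic3, an acid-sensing ion channel, was at 8.51, 8.22 and 8.09 against 4.58 and 3.85 and fell by 4.14 (limma, level-matched adjusted p = 6.23e-08). At week 2 it had a mean of 5.48, from which it was lower by 1.31 at 4 months (adjusted p = 0.0075). Ptger2, a receptor for prostaglandin E2, fell by 2.13 (limma, level-matched adjusted p = 2.13e-05).

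Of 34 lymphoid transcription factors 6 fell and 2 rose, against 4.47% and 2.99% of all genes. Irf4, which antigen and cytokine signals induce in effector lymphocytes, was at 7.72, 7.57 and 8.45 on day 4 and at 4.77 and 5.42 at 4 months, and fell by 2.24 (limma, level-matched adjusted p = 6.33e-05). Bcl6, a repressor, was at 7.99, 7.57 and 7.64 against 5.91 and 5.69 and fell by 1.36 (limma, level-matched adjusted p = 0.000641). Myb, Irf8, Ahr and Nfil3 fell by 1.28, 1.12, 0.83 and 0.82, and each lost its call without at least 1 of the arrays: Myb without 4 of the 5, Irf8 without day 4 replicate 1 or 4-month replicate 2, Ahr without all but 4-month replicate 2, and Nfil3 without day 4 replicate 3 or either 4-month array. Of the list, 3 fell without day 4 replicates 1 and 2. Klf2, a factor of quiescent lymphocytes, was at 5.60, 5.56 and 5.69 against 6.20 and 6.67 and rose by 1.47 after level matching. Its call on the deposited values was lost without 4-month replicate 2 (limma, adjusted p = 0.136) and without day 4 replicate 2 (adjusted p = 0.0532). Klf3 rose by 1.32 and lost its call without day 4 replicate 2 or 3 or 4-month replicate 2. The factors that define ILC2s were not called in both fits: Id2 had a level-matched difference of 0.01, Rora of 0.47 and Gata3 of 0.88, the last with a call on level-matched values (limma, adjusted p = 0.012).

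Early response genes, which fresh signals induce quickly, differed among the day 4 arrays. Of 33 members 6 rose and 2 fell, against 2.99% and 4.47% of all genes. On level-matched values alone 17 were higher, against 4.86% of all genes. Fos was at 7.88 and 8.05 on day 4 replicates 1 and 2, at 9.33 on replicate 3 and at 9.38 and 9.57 at 4 months. Jun was at 8.49 and 8.03, at 9.19 and at 9.45 and 9.93. Replicate 3 of day 4 was thus close to the 4-month arrays for both. Without replicates 1 and 2, 0 members rose and 3 fell, and without replicate 3, 16 rose. With day 4 replicate 1 or 2 or 4-month replicate 1 or 2 left out, 1, 0, 2 and 0 rose. Rgs16, a brake on G protein signalling, went down on all arrays, from 9.58, 9.04 and 10.37 to 4.87 and 6.69, and fell by 3.38 (limma, level-matched adjusted p = 0.000198).

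Metabolic lists differed most between deposited and level-matched values. On the deposited values 22 of 28 oxidative phosphorylation genes, 21 of 23 proteasome genes, 10 of 18 glycolysis genes and 14 of 25 genes of the unfolded protein response and secretion were lower. Of all genes 16.6% were lower on these values, and 38.9% to 54.1% in the bins at levels of 6.13 to 8.73. In both fits 5, 5, 0 and 0 of the lists' genes fell, against 4.47% of all genes and 6.85% to 10.2% in those bins. Without day 4 replicates 1 and 2, 0 of the oxidative phosphorylation and 0 of the proteasome genes fell, and scaling to 1 signal range left medians of -0.15 and -0.07. Without 1 array at a time, 0 (4-month replicate 1) to 5 oxidative phosphorylation genes and 2 (day 4 replicate 1 or 2, 4-month replicate 2) to 8 (day 4 replicate 3) proteasome genes fell. Of 28 fatty acid uptake and oxidation genes Fabp4, Fabp5, Hadha, Acadl, Plin2 and Etfb fell, against 4.47% of all genes. Without 1 day 4 array at a time, 2 (replicate 1 or 2) to 11 (replicate 3) of that list did. Of 20 sterol and fatty acid synthesis genes 6 fell, against 4.47% of all genes. Without 1 array at a time 4 to 6 fell, and 1 without day 4 replicates 1 and 2. Cyp51, the sterol demethylase, was at 7.11, 7.33 and 7.49 against 5.36 and 5.41 and fell by 1.35 (limma, level-matched adjusted p = 0.000706). Sqle, squalene epoxidase, fell by 1.83, and its call was lost without day 4 replicates 1 and 2 (limma, adjusted p = 0.057). Shmt2, which feeds carbon from serine into the mitochondrial folate pool, was at 7.08, 6.92 and 7.02 on day 4, at a mean of 6.95 at week 2 and at 4.71 and 5.09 at 4 months. It fell by 1.46 (limma, level-matched adjusted p = 0.00128) and was lower than at week 2 by 1.41 (adjusted p = 0.0075). Asns, asparagine synthetase, was at 5.63, 5.70 and 5.91 against 4.09 and 4.29 and fell by 1.26, again with a week 2 mean, 5.71, near the day 4 values. Slc7a8, a carrier of neutral amino acids, was at 7.28, 7.79 and 7.49 against 8.86 and 9.42 and rose by 2.14 (limma, level-matched adjusted p = 2.71e-05). Of the death receptor and Bcl2 genes, 2 of 19 fell, against 4.47% of all genes: Fas by 1.94 and Tnfsf10, which encodes TRAIL, by 0.92. Bcl2, which protects from apoptosis, had a level-matched difference of 0.37 with no call.

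**Figure D4:**
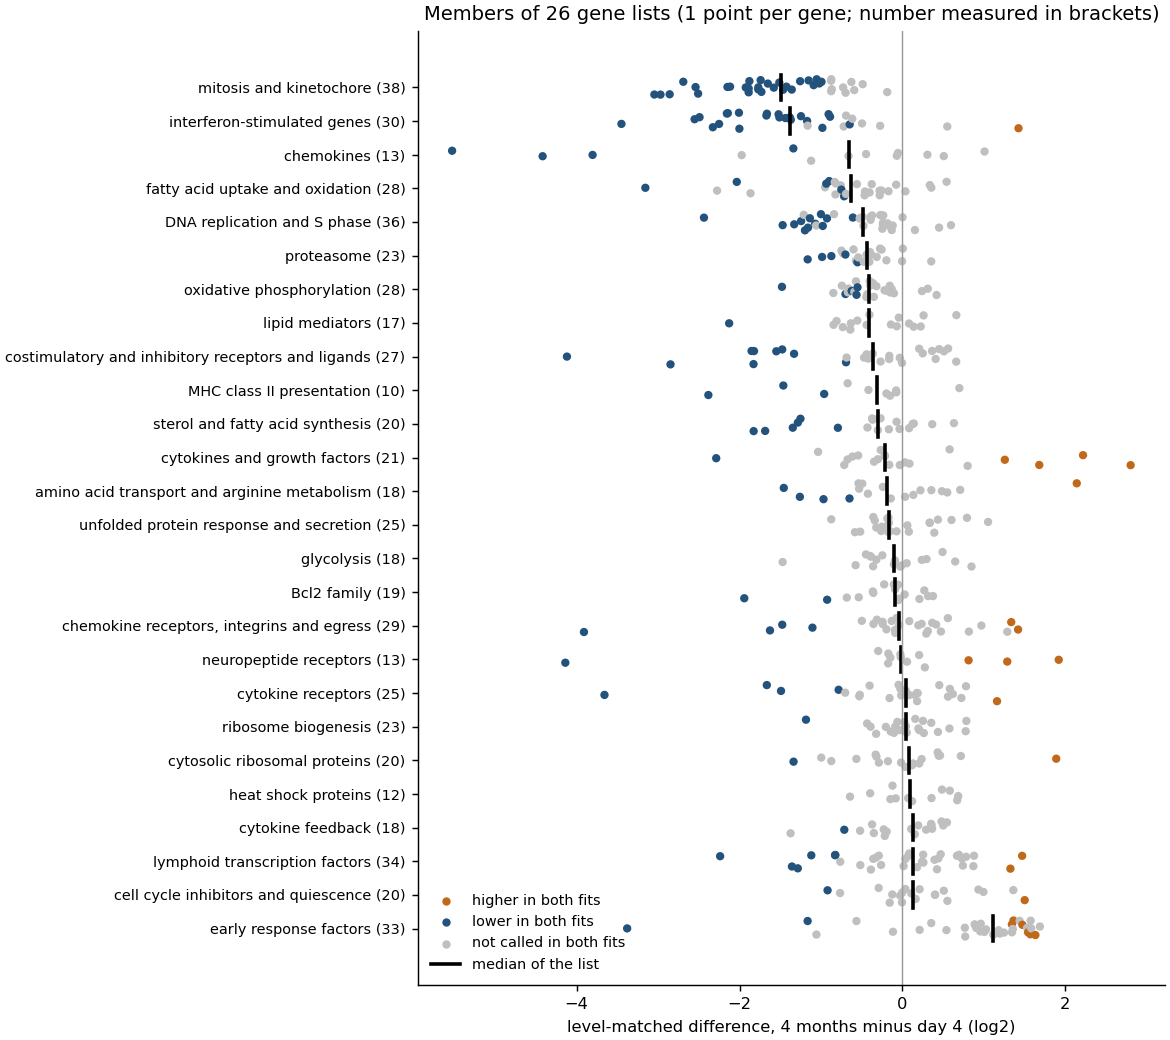
Level-matched difference (4 months minus day 4, log2) of each measured member of 26 gene lists, with colours for genes called in both fits and black bars at list medians. The mitosis and interferon lists lie lowest, with medians of -1.49 and -1.38, and the early response list highest, with a median of 1.11, or 0.50 without day 4 replicates 1 and 2.

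The 10 largest level-matched falls were those of Rnase2a, Ccl17, H1f5, Chil3, Tff1, Ccl24, Bex1, Asic3, Tigit and H2ac15. Tff1, a trefoil peptide of mucosal repair, was at 9.20, 8.88 and 8.79 on day 4 and at 4.80 and 3.80 at 4 months, alike on all day 4 arrays, and fell by 4.59 (limma, level-matched adjusted p = 4.65e-07). Bex1, a small adaptor protein best known from neurons, was at 8.86, 7.93 and 8.28 against 3.28 and 4.58 and fell by 4.36 (limma, level-matched adjusted p = 9.38e-06). At week 2 both were low already, with means of 4.73 and 4.30. Rnase2a, Ccl17 and Chil3 were high on the arrays with high macrophage markers. Rnase2a, a ribonuclease of myeloid cells, was at 10.41 and 10.01 on day 4 replicates 1 and 2, at 5.68 on replicate 3 and at 2.94 and 3.28 at 4 months, and was called without replicates 1 and 2 as well. Chil3, which encodes the macrophage protein Ym1, was at 11.39, 11.43 and 9.19 against 6.71 and 5.24, and was not called without replicates 1 and 2 (limma, adjusted p = 0.371 after level matching), or without 1 array, be it day 4 replicate 1 (0.0692), day 4 replicate 2 (0.0663) or 4-month replicate 2 (0.125).

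**Figure D5:**
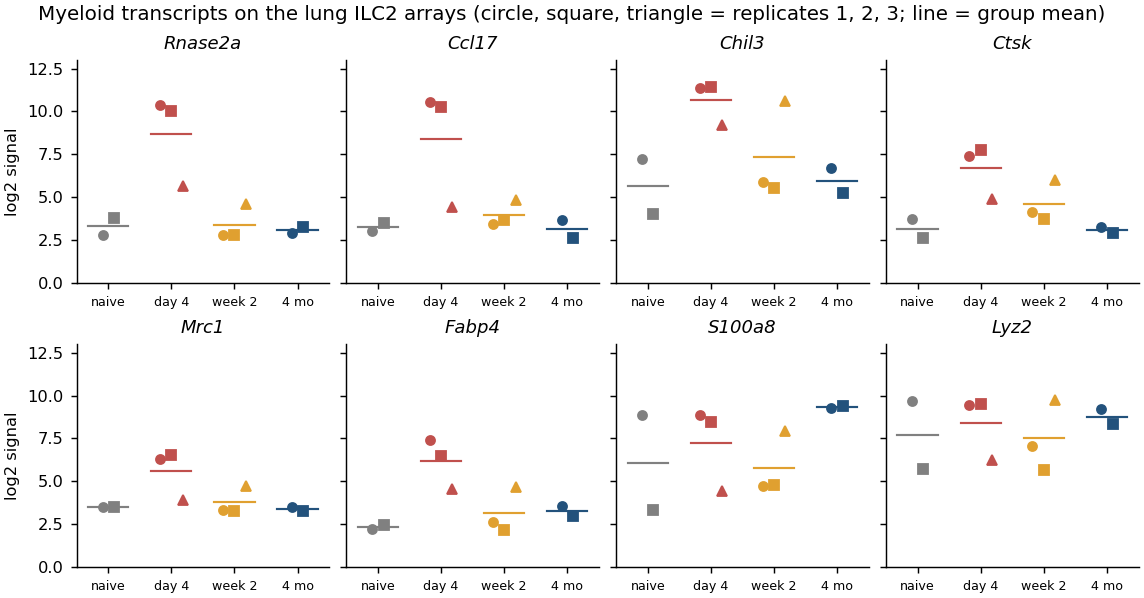
Log2 signal of 8 transcripts of macrophages, monocytes or neutrophils on each lung array, with symbols for the replicates and lines at group means. Rnase2a, Ccl17, Chil3, Ctsk, Mrc1 and Fabp4 are high on day 4 replicates 1 and 2 and lower on replicate 3, whereas S100a8 is high on these replicates and on both 4-month arrays.

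Of the 17 macrophage markers 3 fell (Chil3, Ctsk and Mrc1), against 4.47% of all genes, and 0 rose. Without day 4 replicates 1 and 2, 0 fell. Fabp4, a lipid carrier of alveolar macrophages, was at 7.43, 6.48 and 4.56 against 3.53 and 2.98. Genes of MHC class II presentation, 3 of 10 of which fell, gave 0 without this pair of arrays. Of 9 neutrophil and monocyte markers 1 rose, against 2.99% of all genes, and 0 fell. The risen marker was Ccr2, which is also on the list of chemokine receptors above. S100a8, a calprotectin subunit of neutrophils and monocytes, was at 8.85, 8.47 and 4.41 on day 4 and at 9.25 and 9.39 at 4 months, and was not called (limma, adjusted p = 0.258). The neutrophil and monocyte marker mean was 4.02 to 5.73 on day 4 and 5.81 to 5.97 at 4 months, where Ccr2, S100a8 and S100a9 had means of 10.09, 9.32 and 8.37 and the other members lay lower, between 2.57 for Ly6g, which defines neutrophils, and 5.67 for Ly6c2. The part of these cells in the results was not tested beyond the fits without the arrays or with the covariate.

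Of 10 T cell markers 1 fell, of 11 B cell markers 1 rose and of 11 NK and cytotoxic markers 2 rose. Over all genes 2.99% rose and 4.47% fell, so 1 call in a list this short is not read as a change of the list. The T cell marker mean was 5.15 to 5.33 on day 4 and 5.26 to 5.36 at 4 months. The B cell mean was 3.94 to 4.25 and 4.63 to 4.83, and the NK and cytotoxic mean 4.38 to 4.61 and 4.80 to 5.20. These are deposited values, on which dim genes were shifted upwards at 4 months, by a median of 0.33 at a level of 3.13 and 0.23 at 4.29. How much of the differences in means this shift makes up was not tested. The risen members were Ighm, the IgM constant region, by 2.31, Prf1, perforin, by 1.34 and Gzma, a granzyme, by 1.23 on the level-matched scale. Gzma lost its call without any 1 of the arrays and Prf1 without 4-month replicate 1. The B cell antigen receptor chain Cd79a was at 4.80 and 3.81 at 4 months against 4.06 to 4.78. Cd3g, a chain of the T cell receptor complex, was at 8.94, 8.95 and 9.06 against 7.10 and 7.60 and fell by 1.12 (limma, level-matched adjusted p = 0.00205), while Cd3d and Cd3e were not called in both fits. The mast cell protease gene Cpa3 fell by 1.56, a call lost without day 4 replicate 2 or 4-month replicate 1.

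Of the 12 genes that rose by at least 3 on the level-matched scale, all but Pla2g10os, Lce1g, Flrt2 and Ifna9 were predicted genes, small RNAs or olfactory receptors, which are not described here. With such genes left out, and among genes whose higher group mean reached the median of all values, the 10 largest level-matched rises were those of Pla2g10os, Lce1g, Flrt2, Ifna9, Igkv5-43, Il2, Smok4a, Denn2b, Btbd35f2 and Tmem273. Flrt2, a membrane protein of cell adhesion and guidance, was at 3.27, 3.43 and 2.96 on day 4, at a mean of 4.76 at week 2 and at 6.60 and 7.67 at 4 months. It rose by 3.92 ± 0.34 (SE), or 15.1-fold (limma, adjusted p = 2.66e-06), was higher than at week 2 by 2.19, and was at 7.28 and 6.08 in naive lung. Lce1g, of the late cornified envelope genes of skin, was at 1.72, 2.52 and 1.87 against 6.11 and 6.18. Ifna9, a type I interferon gene, was at 1.73, 1.40 and 1.87 against 4.60 and 6.06. Pla2g10os, an RNA antisense to a phospholipase gene, was at 5.75, 5.23 and 3.03 against 9.82 and 9.69, and at 9.10 and 8.87 in naive lung. Igkv5-43, an immunoglobulin kappa segment, was at 6.79, 6.62 and 6.63 against 8.94 and 9.02. Lce1g, Ifna9, Igkv5-43 and Btbd35f2 belong to gene families with close copies, so the copy behind the signal is uncertain, and detection above background could not be assessed from the deposited values. The rises of Smok4a and Tmem273 were lost without 1 of the 4-month arrays: Smok4a was at 8.34 and 5.79 there, with a deposited adjusted p of 0.163 (limma) without replicate 1, and Tmem273 at 5.56 and 8.15, with 0.0549 without replicate 2.

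Between 4 months and week 2, a comparison that shares the 4-month arrays with the one above, 213 genes were higher (0.960%) and 158 lower (0.712%) in both fits, and 1 of the 38 mitotic genes was lower. In the mediastinal lymph node, on other arrays of the same fits, 113 genes were higher (0.509%) and 254 lower (1.15%) in both fits at week 2 than at day 4. All 38 mitotic genes and 19 of 36 S phase genes were among the lower, with Mki67 going from 9.26, 9.76 and 9.54 to 6.20, 6.16 and 6.13. Of the interferon-stimulated genes 5 of 30 were lower there. Of the 992 genes that fell in lung, 130 (13.1%) were also lower in the node, which is 51.2% of the node's 254. Of the 664 that rose, 30 (4.52%) were higher in the node, 26.6% of its 113. The time points differ between the organs, and the difference between the organs was not tested.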

How the data were processed

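Total RNA of isolated ILC2s was extracted with Trizol and labelled with a Nugen Encore biotin kit, per the labels' protocols; how the cells were sorted is not stated there. The deposited values are log2 signals. The submitters' processing notes name RMA and Affymetrix Expression Console as the tools of the authors. RMA corrects background, equalises the arrays' distributions and summarises probe sets, which hides any difference in RNA per cell. Software versions and the build were not given in the sources used here. Scanner files were not used here.

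Of 41345 probe sets, 23521 had 1 gene symbol in the platform annotation, 1814 several and 16010 none. The probe set with the highest mean was kept for each of 22180 genes (1082 had several). Group means of all 16 arrays were fitted with limma 3.58.1 in R 4.3.3, with 10 residual degrees of freedom, no replicate block, dim genes kept, and two-sided tests. The number of arrays limits the precision. For level matching, genes were ordered by their mean over the 9 arrays of week 2 lung and of the lymph node and split into 20 bins, and the median difference from that mean within each bin was subtracted from each array. Fits were also run on simulated arrays. Where a range shift was simulated, it used the same bins and reference level as level matching, so that choice was not tested. Python 3.11.15 and matplotlib 3.10.9 made the figures.

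Genes named are those called in both fits, with no overlap between the groups' arrays and with the higher mean at or above 4.20, the median of all values: the 10 largest falls and rises, leaving out predicted genes, small RNAs and olfactory or vomeronasal receptors, up to 4 per list of 26, and a set of ILC2 genes named whatever they showed. These rules gave 110 genes, not all of which are described above, such as Psmb5 and Rplp0. Of the ILC2 genes, Thy1 was higher by 1.01 after level matching (limma, adjusted p = 0.0108) and not called on deposited values. Il9 was 2.05-fold lower after level matching and is not described either. Other list members and families named were chosen after their values were seen. The comparison, the lists and 13 marker lists were chosen with earlier results of these data known. Alternatives tried were array weights, other scalings, bins and filters, the 5 arrays alone, a macrophage covariate, a replicate block and leaving out arrays.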

Additional observations from a re-analysis of the deposited data

How the results depend on the processing

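On deposited values 5678 genes were called, and on level-matched values 2193. Array weights gave 2900 and 1368, a fit on the 5 arrays alone 3147 and 1036, leaving out day 4 replicates 1 and 2 together 1501 and 476, and asking for a log2 change of at least 1 as well 2223 and 1060. Repeated quantile normalization gave 3034 on deposited values (1483 higher and 1551 lower), and the macrophage marker mean as a covariate 1389 on level-matched ones. Leaving out 1 array at a time gave 2216 (without 4-month replicate 1) to 6814 (without 4-month replicate 2) and 1263 (without day 4 replicate 1) to 2052, taking the spread of a lone array from the rest. The cause of these changes was not tested. Centring array medians moved the median of all genes from 0.04 to -0.10 and the split on deposited values from 2001 higher and 3677 lower to 1126 and 4588, and scaling each array to 1 signal range to 2606 and 2328. Scaling turned the deposited sign of 9 named genes: Arg1 (0.83), Atp5a1 (0.11), Bcl2 (1.16), Icos (1.51), Id2 (1.21), Il13 (0.71), Il17rb (0.33), Il5 (0.71) and Kit (0.23).

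Of the 91 named genes that rose or fell, 47 passed in both fits under every alternative run, 49 without day 4 replicates 1 and 2, and 71 with the macrophage covariate. Between arrays of the same replicate number the correlations of deviations were -0.01 for replicates 1 and -0.04 for replicates 2. The deviations of the 2 arrays of 4 months mirror each other, so these values cannot show whether replicates were paired. A replicate block gave 5380 calls on deposited and 2317 on level-matched values. Detection above background could not be assessed, so falls of dim genes are the least certain.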
